A study of Mus musculus with 4 samples.

Results

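The Sox genes of neural progenitors were followed in mouse retinal organoids at day 6 of culture, in the presence and absence of doxycycline (Dox). The members were the rows of the deposited table named Sox1, Sox2, Sox3, Sox4, Sox5, Sox6, Sox8, Sox9, Sox11 and Sox21, that is 10 of 55426 rows. They were chosen by name, with earlier results of these data known. Such organoids are grown by letting pluripotent stem cells aggregate and differentiate towards retinal progenitors. All 4 libraries came from a Mettl3 knockout line with an Rx:GFP reporter and a Dox-inducible HA-METTL3, differentiated with 0.1 µM AGN, a supplement the labels do not spell out. The 2 untreated libraries had no Dox and the 2 Dox libraries had 2 µg/ml Dox for 6 days. METTL3 is the catalytic subunit of the enzyme that writes N6-methyladenosine (m6A) on RNA. The titles also carry the letters EV, which the labels do not explain. Controls and Dox libraries shared the knockout and the inducible construct, the labels do not say whether the line is 1 clone, and the replicates are not stated to be separate cultures, so p-values measure the spread between these libraries only.

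Sox proteins bind DNA through a high-mobility-group (HMG) box that bends the double helix, and they usually act together with a partner factor. The SoxB1 proteins Sox1, Sox2 and Sox3 hold neural progenitors in an undifferentiated state, and Sox21, a SoxB2 protein, opposes them. The SoxC proteins Sox4 and Sox11 act as neurons form, the SoxD proteins Sox5 and Sox6 tune the activity of other Sox proteins, and the SoxE proteins Sox8 and Sox9 act in glia, cartilage and stem cells. In the developing eye Sox2 marks retinal progenitors, and Sox9 is found in retinal progenitors, Müller glia and pigment epithelium.

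The members share the start of the HMG box, which is shown here because it defines the family and is the stretch where reads of members could be confused. Each line gives 27 coding bases near the start of the box, 5′ to 3′, from GENCODE M21 transcripts (GRCm38). Capitals mark bases that differ from Sox2.
Sox1: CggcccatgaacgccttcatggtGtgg
Sox2: aggcccatgaacgccttcatggtatgg
Sox3: CgAcccatgaacgcGttcatggtGtgg
Sox4: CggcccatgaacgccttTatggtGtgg
Sox5: CgTccAatgaaTgccttcatggtGtgg
Sox6: CgAccAatgaaTgcGttcatggtTtgg
Sox8: CggcccatgaaTgccttcatggtGtgg
Sox9: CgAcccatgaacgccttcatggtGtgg
Sox11: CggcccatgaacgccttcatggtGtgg
Sox21: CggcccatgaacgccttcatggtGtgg
Sox1, Sox11 and Sox21 had the same 27 bases, which differ from those of Sox2 at 2 positions, and Sox6 differed from Sox2 at 6. Over the 210 coding bases that start there, identity was highest between Sox4 and Sox11 (91%) and between Sox1 and Sox2 (90.5%), and lowest between Sox6 and Sox8 (52.9%). No stretch of 50 bases of a longest transcript was shared with another member, and lengths between 27 and 50 bases were not searched. Of the 50-base windows of the longest transcript, 0 were found in another gene for Sox2, Sox3, Sox4, Sox6, Sox8, Sox9, Sox11 and Sox21. The share was 0.774% for Sox1, all in an annotated miRNA gene inside it, and 0.445% for Sox5, in genes that are not members. Reads were 150 bases long.

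With Dox the family did not move as a block. Of the 10 members 4 were higher (Sox2, Sox8, Sox9 and Sox11) and 5 lower (Sox1, Sox3, Sox4, Sox6 and Sox21) at an adjusted p below 0.05 in limma, and Sox5 did not pass. Over all 13931 genes tested, those with a mean of at least 1 FPKM (fragments scaled to transcript length and library depth), 9.31% were called, 4.44% higher and 4.87% lower. In each of the 10 members the untreated and Dox libraries had no overlap, which held for 53.4% of the genes tested. The median absolute log2 fold change was 0.79 over the members and 0.13 over all genes tested. Only Sox8 passed the filter on low values through its Dox libraries alone. Fold changes are differences of the group means of log2(FPKM + 1), Dox minus untreated, with the standard error (SE) of the fit.

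**Figure D1:**
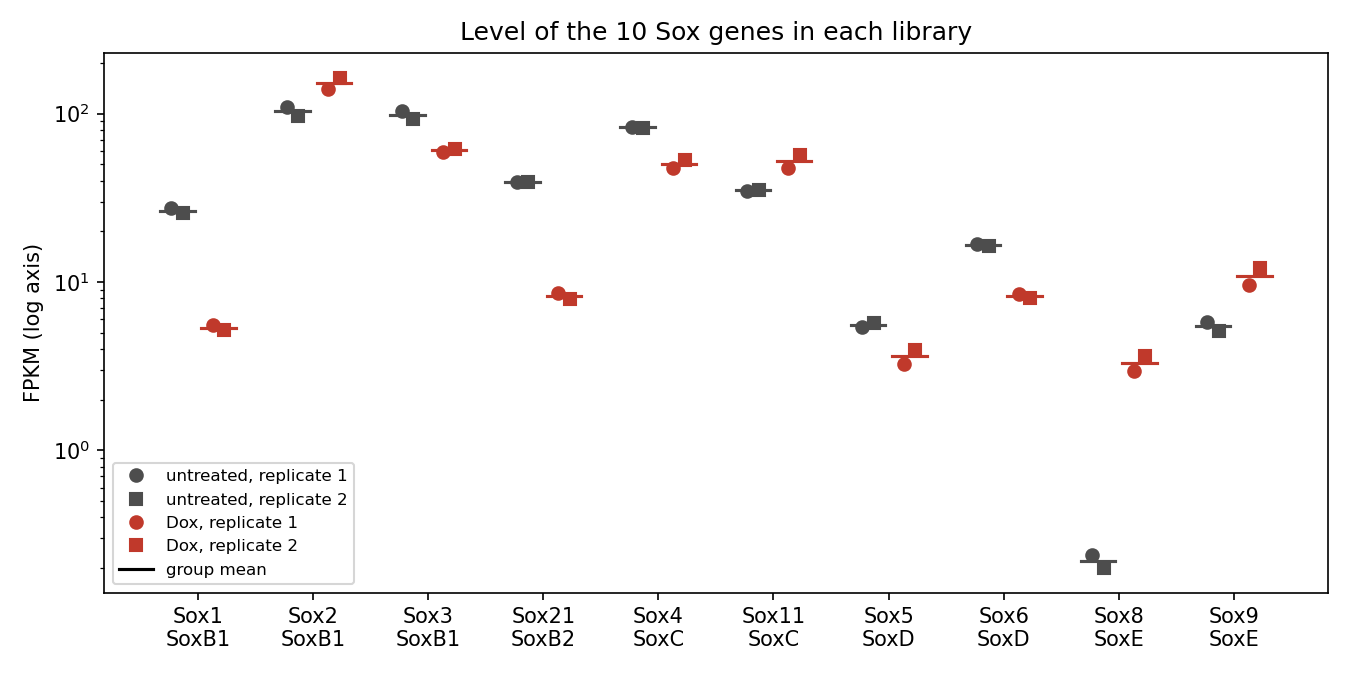
FPKM on a log axis for the 10 Sox genes, grouped by subfamily. Points are single libraries (circle replicate 1, square replicate 2), short lines are group means of 2 libraries. The untreated and Dox points of every gene are separate, and the widest gap is that of Sox8, from a mean of 0.22 to 3.29 FPKM.

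Sox2, the gene that most widely marks neural and retinal progenitors, had 109.56 and 97.34 FPKM without Dox and 139.25 and 163.64 FPKM with it. Both Dox libraries lay above both untreated ones, although the Dox replicates differed from each other by about as much as the nearest libraries of the groups did. The means were 103.45 ± 8.64 and 151.4 ± 17.2 FPKM (SD, n = 2 each), and the log2 fold change was 0.54 (SE 0.106, limma adjusted p = 0.0347). The call was lost whichever library was left out, with adjusted p between 0.0629 and 0.204 in limma, and with the replicate number as a block (adjusted p = 0.0505). Sox2 lies at chr3:34650405-34652461 on the plus strand (GRCm38) as a gene of 1 exon, inside the body of Sox2ot, a long non-coding RNA gene on the same strand.

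Sox2ot itself, which has no exon in common with Sox2 in the annotation, went the other way. Its libraries stood at 5.36 and 4.68 FPKM untreated and at 2.33 and 2.12 FPKM with Dox, without overlap. The log2 fold change was -0.90 (SE 0.120, adjusted p = 0.00956 in limma), and the call was lost without untreated replicate 1 and without either Dox library (adjusted p = 0.0596 to 0.0772). Sox1ot, the transcript that contains Sox1, was below 0.5 FPKM in every library and was not tested.

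Sox3, the SoxB1 gene on the X chromosome (chrX:60891366-60893430, minus strand, 1 exon), was at 103.91 and 92.55 FPKM untreated and at 59.5 and 61.63 FPKM with Dox. Both Dox libraries were lower by more than the replicates differed. The log2 fold change was -0.69 (SE 0.0795, adjusted p = 0.00566 in limma), which no longer passed without Dox replicate 1 (adjusted p = 0.0613) or Dox replicate 2 (0.0567). Without Dox the libraries of Sox2 and Sox3 overlapped in level, and with Dox Sox2 stood above Sox3 in both libraries.

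Sox1, the third SoxB1 gene and an early marker of the neural plate, fell the most within its group. It lies at chr8:12395295-12400126 on the plus strand and has 1 exon. Its level was 27.37 and 25.73 FPKM untreated and 5.53 and 5.17 FPKM with Dox, so that the Dox mean was 20.2% of the untreated mean. The log2 fold change was -2.12 (SE 0.0861, adjusted p = 0.000161 in limma). It was called under each of the 15 other settings tried, with log2 fold changes from -2.29 to -1.61.

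The sum of the SoxB1 genes did not separate the groups, while its make-up did. The 3 genes added up to 240.84 and 215.62 FPKM untreated and to 204.28 and 230.44 FPKM with Dox, and these values overlapped between the groups. Sox2 supplied 45.5% and 45.1% of the sum untreated and 68.2% and 71.0% with Dox. The share of Sox3 went from 43.1% and 42.9% to 29.1% and 26.7%, and that of Sox1 from 11.4% and 11.9% to 2.71% and 2.24%. The ratio of Sox2 to Sox3 was 1.05 in both untreated libraries and 2.34 and 2.66 with Dox. These are whole-organoid values, in which fewer cells of a type and less RNA per cell cannot be told apart.

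**Figure D2:**
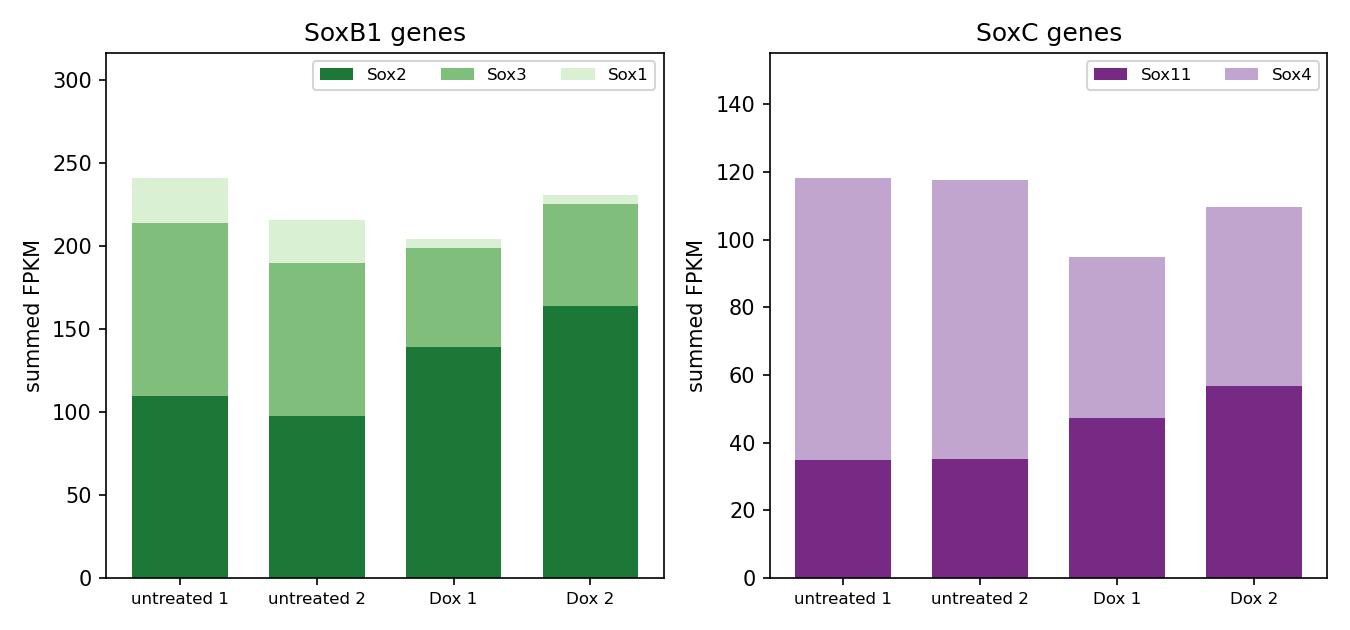
Summed FPKM of the SoxB1 genes (left) and of the SoxC members Sox4 and Sox11, without Sox12 (right), in each library. Bars are stacked by gene, with axes from 0. The SoxB1 bars are of like height, from 204.28 to 240.84 FPKM, and the Sox2 part is larger in both Dox libraries. In the SoxC bars Sox11 takes a larger part with Dox.

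Sox21, the SoxB2 gene that counteracts SoxB1 activity, fell by a similar factor to Sox1. It was at 39.46 and 39.34 FPKM untreated and at 8.57 and 7.93 FPKM with Dox, the Dox mean being 20.9% of the untreated one. The log2 fold change of -2.13 (SE 0.0773, limma adjusted p = 0.000119) was the lowest of the 10 members on the log2(FPKM + 1) scale, with Sox1 next to it, and stood at position 77 from the bottom of all genes tested. It stayed called under each of the 15 other settings. The ratio of Sox2 to Sox21 was 2.78 and 2.47 untreated and 16.2 and 20.6 with Dox.

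The locus of Sox21 (chr14:118233232-118237030, minus strand, 1 exon) shares 18.8% of its exon bases with Gm4675, a non-coding gene on the opposite strand. Gm4675, named after its values were seen, was at 1.7 and 1.81 FPKM untreated and at 0.63 and 0.52 FPKM with Dox. Whether counting used strand is not given in the sources used here, so reads of such partners cannot be told apart. The 250 bases before the start of Sox21, chr14:118237031-118237280 on the minus strand, are shown beside those of Sox2, chr3:34649745-34649994 on the plus strand, and of Sox8, chr17:25570687-25570936 on the minus strand. These are the member with the lowest fold change on the log2(FPKM + 1) scale, the most abundant member and the member with the highest fold change, from RefSeq on GRCm38.p6. Capitals mark a match to any of the motifs searched.
Sox21: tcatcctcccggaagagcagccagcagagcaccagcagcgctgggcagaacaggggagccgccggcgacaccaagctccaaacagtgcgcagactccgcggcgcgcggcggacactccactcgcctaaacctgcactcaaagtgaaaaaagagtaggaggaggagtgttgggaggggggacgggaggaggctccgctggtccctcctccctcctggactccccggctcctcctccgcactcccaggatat
Sox2: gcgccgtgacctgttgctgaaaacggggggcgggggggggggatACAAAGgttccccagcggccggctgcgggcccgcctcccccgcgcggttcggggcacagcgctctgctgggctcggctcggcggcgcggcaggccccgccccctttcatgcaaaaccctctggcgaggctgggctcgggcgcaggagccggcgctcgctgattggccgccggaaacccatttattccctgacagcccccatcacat
Sox8: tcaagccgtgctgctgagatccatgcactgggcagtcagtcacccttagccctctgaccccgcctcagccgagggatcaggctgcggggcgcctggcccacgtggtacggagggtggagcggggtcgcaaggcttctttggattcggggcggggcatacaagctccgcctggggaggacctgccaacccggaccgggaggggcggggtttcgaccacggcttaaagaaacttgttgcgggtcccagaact
The motifs were ACAAAG and ACAATG, the core letters bound by Sox proteins, ATGCAAAT (POU factors), TAATTA (homeodomain factors) and CTTTGAT (TCF/LEF factors), on both strands and in the 250 bases before each start. Sox2 held ACAAAG, which 16.5% of all 32851 RefSeq promoter windows held, and ACAATG occurred in 10.7%. ATGCAAAT was in 1.6%, TAATTA in 4.84% and CTTTGAT in 3.21% of them. A match of ACAATG can overlap 1 of ATGCAAAT at the letters ATG. The windows of Sox21 and Sox8 held none of the 5 motifs. The window held 27 CpG sites for Sox2, 17 for Sox21 and 18 for Sox8, with 72%, 65.2% and 65.6% of G and C. A start was found for 8 of the 10 members, and Sox6 had 6 of them.

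The SoxC members Sox4 and Sox11, which act in newborn neurons, moved in opposite directions. Sox4 (chr13:28948919-28953713, minus strand, 1 exon) was at 83.49 and 82.32 FPKM untreated and at 47.57 and 52.98 FPKM with Dox. The Dox libraries were lower, with a log2 fold change of -0.71 (SE 0.0761, limma adjusted p = 0.00421), and the call held in each of the 15 other settings. A non-coding gene on the opposite strand, Gm26735, overlaps 54.6% of the exon bases of Sox4.

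Sox11 (chr12:27334264-27342574, minus strand, 1 exon) was at 34.76 and 35.21 FPKM untreated and at 47.28 and 56.72 FPKM with Dox. Both Dox libraries were higher, with a log2 fold change of 0.55 (SE 0.0996, limma adjusted p = 0.0271). This was lost without untreated replicate 1, untreated replicate 2 or Dox replicate 2 (adjusted p from 0.0858 to 0.141). The ratio of Sox11 to Sox4 was 0.416 and 0.428 untreated and 0.994 and 1.07 with Dox, and with Dox the libraries of both genes overlapped in level. The sum of Sox4 and Sox11 was 118.25 and 117.53 FPKM untreated and 94.85 and 109.7 FPKM with Dox. It leaves out the SoxC gene Sox12, at 43.79 and 40.33 FPKM untreated and at 45.81 and 53.82 FPKM with Dox.

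The SoxD members Sox5 and Sox6 were both at lower values with Dox. Sox6, spread over chr7:115470872-116038796 on the minus strand, with 16 exons in its longest transcript, was at 16.89 and 16.25 FPKM untreated and at 8.44 and 7.98 FPKM with Dox. Its Dox mean was 49.5% of the untreated mean, with a log2 fold change of -0.93 (SE 0.0836, limma adjusted p = 0.00227), and the call held in each of the 15 other settings. Sox5 (chr6:143828425-144781977, minus strand, 15 exons in its longest transcript) was at 5.37 and 5.72 FPKM untreated and at 3.26 and 3.97 FPKM with Dox. Its libraries did not overlap, but the log2 fold change of -0.51 (SE 0.122) did not pass (adjusted p = 0.0668 in limma). It passed in 1 of 14 other settings, with GC and length trends removed (adjusted p = 0.0294). Sox5 has 14 and Sox6 16 annotated transcripts, so their FPKM also depends on how fragments were split between them.

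The SoxE members Sox8 and Sox9 rose. Sox10, a SoxE gene that is not a member, fell from 12.79 and 13.35 FPKM untreated to 0.82 and 0.43 FPKM with Dox. Sox9 (chr11:112782224-112787760, plus strand, 3 exons), a gene of retinal progenitors and glia, was at 5.76 and 5.13 FPKM untreated and at 9.65 and 12.11 FPKM with Dox. Both Dox libraries were higher, with a log2 fold change of 0.88 (SE 0.133, limma adjusted p = 0.0150) and a ratio of means of 2.00. The call was lost without untreated replicate 1, untreated replicate 2 or Dox replicate 2 (adjusted p from 0.0643 to 0.0953).

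Sox8 (chr17:25565892-25570686, minus strand, 3 exons in its longest transcript), the closest relative of Sox9 among the members, came from near the limit of detection. It was at 0.24 and 0.2 FPKM untreated and at 2.95 and 3.63 FPKM with Dox. By the fitted depth and the longest transcript, these values stand for about 21 and 19 fragments untreated and about 258 and 328 with Dox. The ratio of means was 14.95. The log2 fold change of 1.81 (SE 0.145, limma adjusted p = 0.00151) was the highest of the members, and it was 3.40 with a pseudocount of 0.1 and 0.67 with a pseudocount of 5. The ratio of Sox9 to Sox8 was 24.0 and 25.6 untreated and 3.27 and 3.34 with Dox. An antisense gene, 2810468N07Rik, overlaps 10.6% of the exon bases of Sox8 and stood at 1.08 and 0.99 FPKM untreated and at 1.35 and 1.52 FPKM with Dox, named after its values were seen.

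**Figure D3:**
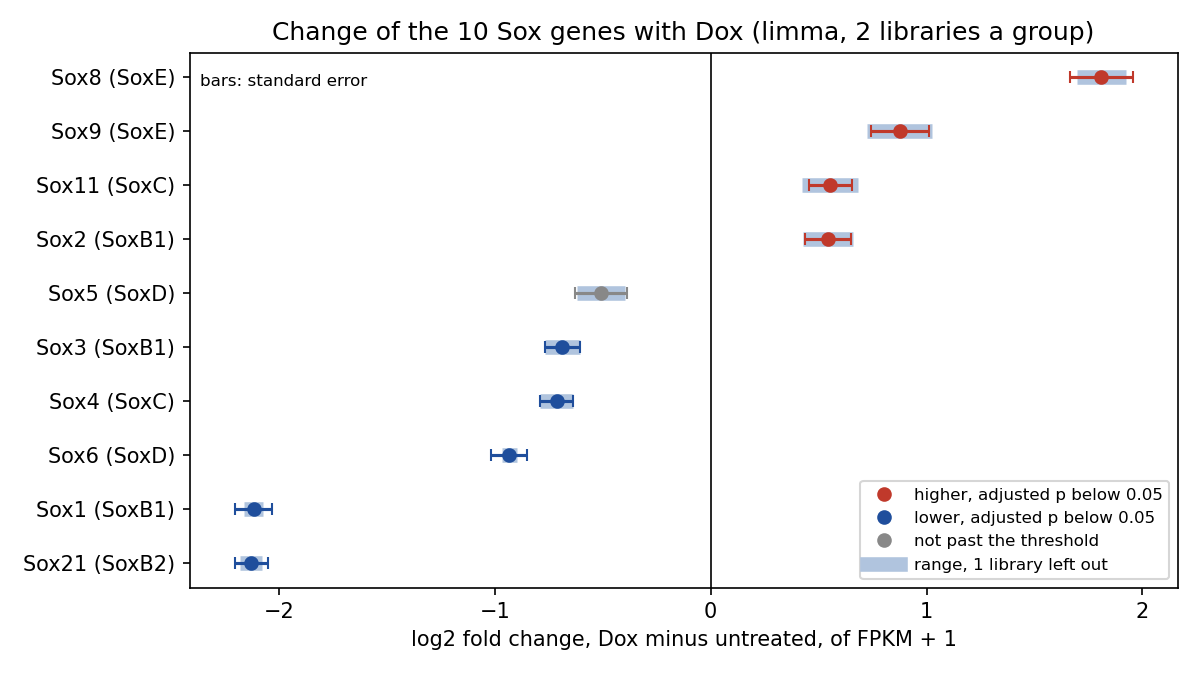
Log2 fold change of FPKM + 1 (Dox minus untreated) of each Sox gene, ordered by value, with its standard error, over the range found when 1 library is left out at a time. Colours give the call in limma. Sox1 and Sox21 stand apart at -2.12 and -2.13, and Sox8 at 1.81.

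FPKM is per length, so the levels can be put in order, but the places of Sox5 and Sox6, which have many transcripts, and of Sox4, Sox8 and Sox21, which overlap antisense genes, carry the uncertainty given above. Without Dox the order from high to low was Sox2, Sox3, Sox4, Sox21, Sox11, Sox1, Sox6, Sox5, Sox9 and Sox8. Neighbours in it whose libraries overlapped were Sox2 with Sox3 and Sox5 with Sox9. With Dox the order was Sox2, Sox3, Sox11, Sox4, Sox9, Sox21, Sox6, Sox1, Sox5 and Sox8, with overlap between Sox11 and Sox4, Sox21 and Sox6, and Sox5 and Sox8. The sum over the 10 genes was 426.81 and 399.79 FPKM untreated and 332.0 and 375.76 FPKM with Dox.

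The longest transcripts of the members differed widely in length and composition. They ran from 2057 bases (Sox2) to 8668 bases (Sox6), and the G and C content from 44.8% (Sox5) to 66.4% (Sox3). GGAC, the core letters of the m6A consensus, was counted on the transcript strand, since METTL3 writes this mark. It occurred 3.31 times per kilobase in Sox1 and 5.33 times in Sox3, the lowest and highest of the members, and the median over 13918 tested genes was 3.94. Members that fell and members that rose had overlapping densities, at 4.74 in Sox21, 4.86 in Sox2 and 5.00 in Sox8. The letters are a description, and m6A was not measured in these libraries.

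Of the 10 other Sox genes in the table, 7 stayed below 1 FPKM in every library. Sox10, the SoxE gene of neural crest and oligodendrocytes, fell from 12.79 and 13.35 FPKM to 0.82 and 0.43 FPKM, a log2 fold change of -3.12 (SE 0.148, limma adjusted p = 0.000269). It went against Sox8 and Sox9 of the same subfamily. Sox12, the remaining SoxC gene, was at 43.79 and 40.33 FPKM untreated and at 45.81 and 53.82 FPKM with Dox and did not pass (adjusted p = 0.226). Sox13, a SoxD gene, was at 22.11 and 21.39 FPKM untreated and at 20.32 and 24.25 FPKM with Dox, with overlapping groups (adjusted p = 0.897).

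Factors known to act with Sox2 also went in different directions. Of 10 such genes tested, 1 was higher and 5 lower past the threshold, with a median log2 fold change of -0.19 against -0.0042 over all genes tested. Rax, a retinal homeodomain factor, rose from 1.12 and 0.82 FPKM to 201.14 and 227.98 FPKM. The POU factor Pou3f3 fell from 17.96 and 18.01 FPKM to 1.06 and 0.98 FPKM (log2 fold change -3.23), and Pou3f2 had a log2 fold change of -2.71 (adjusted p = 0.0000742 and 0.000175 in limma). Pax6, the partner of Sox2 in the lens, was at 127.76 and 118.86 FPKM untreated and at 122.8 and 130.69 FPKM with Dox, with overlapping groups (adjusted p = 0.796). Chd7, a chromatin remodeller that binds Sox2, was at 50.45 and 48.65 FPKM and at 45.37 and 63.87 FPKM (adjusted p = 0.711).

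Of 14 tested genes known as targets or companions of SoxB1 factors in neural progenitors, 1 was higher and 6 lower, and the median log2 fold change was -0.36. Fabp7, a fatty acid binding protein of radial glia, fell from 73.08 and 75.09 FPKM to 5.18 and 6.22 FPKM (log2 fold change -3.49, adjusted p = 0.0000696 in limma), and Mycn fell with a log2 fold change of -1.19. Hes1, a Notch effector, rose from 35.99 and 31.08 FPKM to 81.23 and 92.1 FPKM (log2 fold change 1.34, adjusted p = 0.00123). Hes5, another Notch effector in the list, fell from 26.08 and 21.72 FPKM to 10.23 and 9.62 FPKM. Its log2 fold change was -1.18 (limma adjusted p = 0.00252), and it is named after its values were seen. The RNA-binding protein gene Msi1 (log2 fold change -0.32, adjusted p = 0.0818) and the N-cadherin gene Cdh2 (-0.40, adjusted p = 0.0529) did not pass.

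Among 11 tested neuronal genes linked to SoxC factors 2 were higher and 7 lower, with a median log2 fold change of -1.18. Gap43, a growth cone protein, fell from 38.66 and 42.18 FPKM to 9.28 and 6.94 FPKM (log2 fold change -2.20), and Stmn2 (-1.87) and Elavl4 (-1.73) fell as well (adjusted p from 0.000415 to 0.00206 in limma). Stmn1, a tubulin-binding protein also made in progenitors, was at 396.64 and 368.64 FPKM untreated and at 368.99 and 378.49 FPKM with Dox (adjusted p = 0.841). Tead2, at 239.18 and 218.26 FPKM and at 261.91 and 296.33 FPKM, did not pass (adjusted p = 0.138).

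Among 8 tested genes linked to SoxE factors in cartilage and glia 3 were higher and 2 lower, with a median log2 fold change of -0.05. The collagen gene Col9a1, a Sox9 target in cartilage, rose from 0.25 and 0.37 FPKM to 21.4 and 22.38 FPKM (log2 fold change 4.13, adjusted p = 0.0000696 in limma). Col2a1, another such collagen gene, rose from 33.79 and 31.93 FPKM to 71.8 and 91.37 FPKM (log2 fold change 1.28, adjusted p = 0.00285). Olig2, a factor of oligodendrocyte precursors, fell from 4.97 and 3.74 FPKM to 0.18 and 0.21 FPKM (log2 fold change -2.15, adjusted p = 0.00111). Pdgfra, the third higher gene, went the other way, from 1 and 1.2 FPKM to 2.82 and 2.74 FPKM. Its log2 fold change was 0.85 (limma adjusted p = 0.0141), and the call was lost in some other settings. Both Olig2 and Pdgfra are also counted among the glial markers. Fgfr3 (adjusted p = 0.0612) and Col11a1 (0.230) did not pass. Of the 18 genes in the list 9 were below 1 FPKM in every library.

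Of 12 tested genes of proteins that modify or degrade Sox proteins, 0 passed in limma, beside 9.31% of all genes, and 0 had an unadjusted p below 0.05. The groups did not overlap for 7 of the 12, beside 53.4% of all genes, and the median log2 fold change was -0.0089. The most abundant were Ube2s, at 261.83 and 243.4 FPKM untreated and at 271.88 and 267.04 FPKM with Dox, and Ddb1, with a log2 fold change of 0.12 (adjusted p = 0.355).

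**Figure D4:**
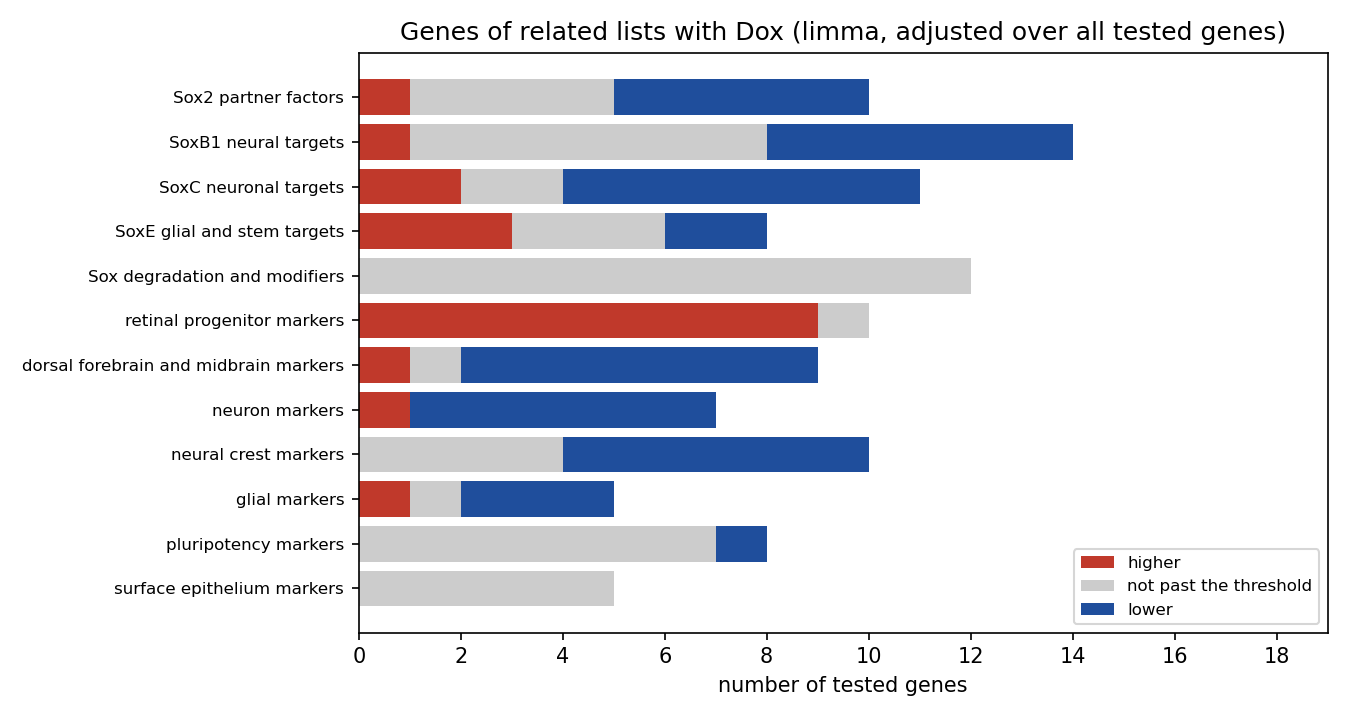
Number of tested genes of each related list that were higher, lower or not past the threshold with Dox in limma. Retinal progenitor markers were higher in 9 of 10 genes, while the neuron, neural crest and dorsal forebrain and midbrain lists hold mostly lower genes, and 0 genes of the degradation list were called. Some genes are counted in several lists.

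Some lists of cell type markers also differed between the groups, and others did not. Of 10 retinal progenitor markers 9 were higher and 0 lower, with a median log2 fold change of 4.91, also with Six6 at the bound set by 3 fragments per library. Their summed level was 151.75 to 164.01 FPKM untreated and 941.12 to 1119.31 FPKM with Dox. Pax6, which was not called, made up most of the untreated sum. It was at 127.76 and 118.86 FPKM untreated and at 122.8 and 130.69 FPKM with Dox. Other markers were near absent or low without Dox, with Rax at 1.12 and 0.82 and Six6 at 0.01 FPKM in both libraries. Six3 was at 7.7 and 7.05 FPKM and Lhx2 at 26.72 and 24.3 FPKM untreated. With Dox Six3 was at 83.02 and 108.75, Six6 at 79.22 and 92.44 and Lhx2 at 277.17 and 323.88 FPKM. With Rax and Six6 near absent, though Pax6 was not, the untreated libraries are called by their label and not as retina.

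Of 9 tested markers of dorsal forebrain and midbrain 1 was higher and 7 lower, and the list summed to 251.62 to 261.17 FPKM untreated and 32.21 to 36.24 FPKM with Dox. Among those that fell were Zic1, Wnt8b and Emx2, with fold changes of -4.04, -3.92 and -3.06 on the log2(FPKM + 1) scale. The midbrain gene Pax7 did not pass (adjusted p = 0.605 in limma). Neuron markers had 1 gene higher and 6 lower of 7 tested, and a sum of 189.67 to 190.6 FPKM untreated against 94.15 to 95.66 FPKM with Dox. The 6 lower genes are also counted among the lower genes of the SoxC-linked list, so these counts are not separate results.

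Of 10 neural crest markers 6 were lower and 0 higher, and their sum was 46.79 to 48.55 FPKM untreated and 13.41 to 16.1 FPKM with Dox. Besides Sox10, Tfap2b (log2 fold change -2.45) and Pax3 (-2.33) fell, while Tfap2a (adjusted p = 0.490 in limma) and Twist1 (0.0914) did not pass. Sox10 is also counted among the glial markers, and Pax3 among those of dorsal forebrain and midbrain. Glial markers had 1 higher and 3 lower of 5 tested and summed to 30.4 to 30.86 FPKM untreated and 10.69 to 11.05 FPKM with Dox. Of the 10 glial markers 5 stayed below 1 FPKM in every library, the astrocyte genes Gfap and S100b among them. Pluripotency markers summed to 70.16 to 73.65 FPKM untreated and 53.25 to 77.09 FPKM with Dox, with 1 of 8 lower, Klf4 (log2 fold change -0.71, limma adjusted p = 0.0348). The call of Klf4 was lost whichever library was left out (adjusted p from 0.088 to 0.127 in limma) and without the filter on low values (0.101).

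Of 5 tested surface epithelium markers 0 passed in limma, beside 9.31% of all genes, and 1 had an unadjusted p below 0.05. Krt8 was at 24.99 and 23.03 FPKM untreated and at 25.31 and 23.91 FPKM with Dox. Of 12 endoderm and mesoderm markers, among them Sox17, Sox7 and Sox18, 10 stayed below 1 FPKM in every library, and Kdr, a receptor of vascular and retinal progenitors, rose from 0.22 and 0.25 FPKM to 13.91 and 17.63 FPKM. The part of these cell type differences in the changes of the Sox genes was not tested.

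Depth was similar in the 4 libraries, at 31700000 to 34700000 fragments fitted from the low values, and 13813 to 13909 genes reached 1 FPKM in each. Mettl3, the gene the line is named for, had 40.33 and 37.98 FPKM untreated and at 45.2 and 46.37 FPKM with Dox (adjusted p = 0.122 in limma). This value pools the knocked-out locus with whatever the inducible copy contributes and does not check the labels. All 4 libraries carry a single batch date.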

How the data were processed

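RNA was poly(A)-selected and sequenced as paired-end reads of 150 bases, per the labels' protocols. The authors deposited FPKM values, 1 column per library, rounded to 2 decimals. STAR, Cuffdiff and mm10 are named, without versions, in the submitters' processing notes. The annotation release and strand setting are not given in the sources used here. Coordinates, lengths and overlaps came from GENCODE M21 (GRCm38).

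FPKM is no count, so genes whose mean reached 1 FPKM were tested as log2(FPKM + 1) with limma 3.58.1 in R 4.3.3 (lmFit, eBayes with trend) on all 4 libraries, two-sided, with Benjamini-Hochberg adjustment over all 13931 genes and a threshold of 0.05. The variance prior had 3.5 degrees of freedom. For a single gene, the smallest two-sided p of an exact permutation test on 2 libraries against 2 is 0.333. In simulated data on the 13931 genes, with normal noise, 200 genes were changed by 1 or 2 on the log2 scale. There limma recovered 70.2% of genes changed by 1 and 92.7% of genes changed by 2, and 2.41% of its calls were unchanged genes. Smaller changes, such as those of most called members, were not simulated, so these rates do not cover them.

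Depth was fitted from low values of genes with 1 transcript of 450 to 1200 bases (Python 3.11.15, numpy 2.4.6). Of these values 77.2% to 79.3% came out as whole fragments within 0.1, against 18.6% to 20.8% with lengths shuffled between genes. No interval was computed for the fitted depth.

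The members and lists were chosen with earlier results of these data known. Named besides the members are other Sox genes that reach 1 FPKM, and from each list up to 3 called genes with the largest change and up to 2 of the highest level that were not called. A few others are marked as named after their values were seen. Some genes that the rule picked are left unreported and remain in all counts.

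The alternatives were pseudocounts of 0.1 and 5, no filter or a minimum mean of 5 FPKM, rescaling to TPM, median centring, quantile normalization, eBayes without trend or robust, the replicate number as a block, and each library left out. Removing GC and length trends was added after the data were seen.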

Additional observations from a re-analysis of the deposited data

How the results depend on the processing

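The direction of each of the 10 Sox genes was the same in all the settings tried. Only rescaling to TPM, median centring, quantile normalization and removal of GC and length trends could have reversed it. The other settings could not, because in each member both Dox values lay on the same side of both untreated values. No rescaling moved the median of all genes tested by over 0.1 on the log2 scale. Sox1, Sox4, Sox6, Sox8 and Sox21 were called wherever they were tested. The 4 members called higher became 1 without a filter on low values, which tests 27532 genes, and 2 without the trend. There Sox2 had adjusted p = 0.143 and 0.0621 and Sox11 0.121 and 0.0506 in limma, and Sox9 had 0.095 without a filter. Leaving out 1 library at a time gave 1 to 3 members called higher and 4 to 5 lower, and 262 to 320 genes called higher and 331 to 377 lower among all genes, against 619 and 678. These fits have fewer libraries and assume that the lone library of a group varies like the other group. All genes called numbered 336 higher and 409 lower without a filter, of which 566 were among the 1297 calls, and 408 and 413 with a minimum mean of 5 FPKM, which tests 10342 genes.

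The replicate block (replicate number as a covariate) gave 532 genes higher and 602 lower and 3 members higher, and it ended the call of Sox2 (limma adjusted p = 0.0505) and that of no other member. Same-numbered libraries did not deviate together (correlation -0.043 across genes), so nothing shows that the numbers pair libraries. With quantile normalization Sox2 had an adjusted p of 0.0609, and with GC and length trends removed Sox5 had 0.0294. Other named genes that had not passed were called in some settings in limma. Cdh2 had an adjusted p of 0.0433 with median centring, 0.0377 with robust eBayes and 0.0157 with GC and length trends removed, where Msi1 had 0.0209 and Tead2 0.0463. Fgfr3 had 0.0442 with robust eBayes.

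Genes that had not passed changed sign in some settings. Without 1 library the log2 fold change ranged from -0.0935 to 0.151 for Sox13, -0.0121 to 0.0912 for Pax6, -0.0218 to 0.0913 for Krt8, -0.124 to 0.360 for Chd7, -0.478 to 0.0762 for Dppa5a, -0.269 to 0.248 for Pou5f1 and -0.0857 to 0.0197 for Stmn1. Sox13 was at -0.0052 with GC and length trends removed, Stmn1 at 0.0155 with quantile normalization and Pou5f1 at 0.0091 with TPM. The cause was not tested.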

Other observations

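Some genes ran against the direction of their lists, and they are named after their values were seen. Prox1, a homeodomain factor of horizontal cells and other neurons, rose from 1.94 and 1.79 to 3.87 and 4.34 FPKM (log2 fold change 0.83, limma adjusted p = 0.0122). Insm1, a zinc finger factor of newborn neurons, rose from 4.88 and 5.37 to 7.94 and 10.75 FPKM (log2 fold change 0.74, adjusted p = 0.0419). Both stood beside 7 lower genes in the SoxC-linked list. Syt1, a synaptic vesicle protein, rose from 0.56 and 0.58 to 2.13 and 2.17 FPKM (log2 fold change 1.00, adjusted p = 0.00778), against 6 lower neuron markers.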
